A study of Mus musculus with 36 samples.

Results

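Described here are 10 genes of lipoprotein biology in mouse liver: the apolipoprotein genes Apoa1, Apoa2, Apoa4, Apob, Apoc1, Apoc2, Apoe, Apof and Apom, and Mttp, the microsomal transfer protein that loads lipid onto Apob. Every probe whose gene name in the scanner files is one of these 10 was taken, which gave 15 of the 56605 non-control probes of the array and 10 of its 37074 gene names.

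The study measured liver RNA of 36 male mice, 11 weeks old, untreated and fed a standard diet without restriction, on 1 single-colour Agilent array each. Mice labelled IRLKO had a tamoxifen-inducible, hepatocyte-specific loss of the insulin receptor, made by crossing an allele with LoxP sites around exon 4 (IRlox/lox) to C57BL/6J mice with TTR-CreTam, a Cre driven by the transthyretin promoter, and are called knockouts (IRhep-/-). Mice labelled IRLWT were their controls (IRhep+/+), and the labels do not say whether these carried Cre or when tamoxifen was given. Livers were taken at Zeitgeber time (ZT, hours after lights-on) 8, 12 or 16, with lights off at ZT12, which gave 6 groups with 6 mice each.

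Triglyceride leaves the liver in very low density lipoproteins (VLDL), which form in the endoplasmic reticulum when Mttp transfers lipid to the growing Apob chain. The smaller apolipoproteins then decide what happens to the particle in blood: Apoc2 switches on lipoprotein lipase, Apoc1 slows clearance, and Apoe binds the receptors that remove remnants. Apoa1 and Apoa2 are the main proteins of high density lipoprotein (HDL), on which Apom carries sphingosine 1-phosphate. Insulin is known to restrain VLDL secretion by hepatocytes, and FoxO1, which insulin signalling keeps out of the nucleus, is a known activator of Mttp and of the related gene Apoc3.

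Some of the probes used are printed first, 5′ to 3′ and as in the scanner files, because each value below is the signal of 1 such 60-base sequence. Apoc2 values below are from probe A_51_P334979 unless the second probe is named. That probe and the Apof probe, A_51_P495825, are among those not printed. Positions are on build mm9. Apom was read at chr17:35267047-35267106 (minus strand), Apoc2 by a second probe at chr7:20258597-20258656 (minus), Apoe at chr7:20281732-20281791 (minus), Apoa1 at chr9:46037921-46037980 (plus) and Apoa4 at chr9:46051206-46051266 (plus). The exon each probe lies in was not determined here.
Apom, probe A_52_P150236: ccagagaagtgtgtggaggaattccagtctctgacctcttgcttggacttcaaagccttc
Apoc2, probe A_66_P130918: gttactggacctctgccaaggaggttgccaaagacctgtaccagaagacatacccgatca
Apoe, probe A_51_P171999: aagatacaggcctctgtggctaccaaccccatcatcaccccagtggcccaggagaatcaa
Apoa1, probe A_51_P408082: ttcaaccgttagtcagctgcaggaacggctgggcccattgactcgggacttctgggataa
Apoa4, probe A_55_P2837366: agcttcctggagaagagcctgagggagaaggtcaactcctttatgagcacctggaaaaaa

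Mttp had a pair of probes that do not read the same stretch of the gene, which is why they are shown together with the 250 bases before its start site (RefSeq, build GRCm38.p6, chr3:138143419-138143668, minus strand). Capitals mark the 37 bases shared by probe A_55_P2344933 and this window. The run covers positions -37 to -1 before the annotated start, so the probe begins upstream of it and extends 23 bases past it. That probe was well above background on 18 of 36 arrays, with signals of 3.53 to 33.0 intensity units, whereas A_55_P1970299 (mm9 chr3:137753868-137753927, minus) was well above background on all 36 with 2080 to 5035 units. Mttp is therefore described by A_55_P1970299.
Mttp, probe A_55_P1970299: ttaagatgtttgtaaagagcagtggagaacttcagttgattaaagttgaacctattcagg
Mttp, probe A_55_P2344933: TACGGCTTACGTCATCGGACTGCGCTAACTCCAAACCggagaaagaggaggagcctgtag
Mttp, upstream window: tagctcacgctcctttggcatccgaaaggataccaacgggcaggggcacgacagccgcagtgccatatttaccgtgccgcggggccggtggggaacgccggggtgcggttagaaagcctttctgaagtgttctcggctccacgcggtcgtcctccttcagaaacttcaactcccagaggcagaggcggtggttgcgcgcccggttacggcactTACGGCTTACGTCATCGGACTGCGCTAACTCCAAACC

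Values are log2 signal minus the 75th percentile of the array, so 0 is that percentile. Each gene is given by its brightest probe, tests are limma fits over 23054 genes with wash batch (3 batches of 11, 12 and 13 arrays, each with every group) as a term, and a gene is called at a Benjamini-Hochberg adjusted p under 0.05. Insr, the targeted gene, checked the labels: in knockouts it stood at 29.2%, 27.2% and 31.7% of control at ZT8, ZT12 and ZT16 (limma adjusted p 1.18e-11, 2.31e-12 and 2.79e-11), without overlap of groups, though the exon its probe reads was not determined. The 75th percentile signal ran from 305.9 to 520.5 intensity units, with medians of 374, 368.4 and 379.2 in controls and 376.8, 420.3 and 426.7 in knockouts at ZT8, ZT12 and ZT16. All 14 probes other than the dim Mttp probe were well above background on every array, and none had a saturated pixel. Hepatocyte markers summed to 2320 to 4280 times the 75th percentile signal, and all 6 of them were measured on every array.

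Markers of cells other than hepatocytes differed with genotype too. All 6 Kupffer cell markers were measured on every array, and their summed level had medians of 47.4, 52.5 and 52.2 times the 75th percentile signal in controls (range over groups 27.3 to 133) and 109, 128 and 87.7 in knockouts (54.3 to 273), with 2, 4 and 3 of 6 markers called higher, where 16.6%, 19.7% and 19.6% of all genes were. Of 5 markers of sinusoidal endothelium, 0, 4 and 3 were called higher (median log2 ratios -0.03, 0.46 and 0.37), and of 6 of stellate cells and fibroblasts 0, 2 and 2. The summed hepatocyte level had medians of 3480, 3630 and 3730 in controls and 2660, 3050 and 3030 in knockouts. Its 6 markers did not move one way: 0, 2 and 0 were called higher and 2, 3 and 3 lower, with Ttr at log2 ratios of -1.12, -1.02 and -0.98 and Alb at -0.41, -0.35 and -0.39, while Tat and Hnf4a were called higher at ZT12 (0.55 and 0.31, limma adjusted p 0.0121 and 0.0329). In whole liver, fewer cells of a type and less RNA per cell cannot be told apart, and what part these shifts have in the values below was not tested.

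Apom and Apof stood out by size and in opposite directions, the first higher and the second lower in knockouts at every time. At ZT8, 3 of the 10 members were called, 2 higher and 1 lower, where 35.5% of all genes were called. At ZT12, 5 members were called, 1 higher and 4 lower (42.1% of all genes), and at ZT16, 6 members, 2 higher and 4 lower (39.9% of all genes). Read against those shares of all genes, the counts are no result about the members as a set. Their split by direction also depended on the scaling, and is given here without the shares of all genes under each scaling. It is therefore no result about the members either. Without scaling between arrays, 3 members were higher and 1 lower at both ZT12 and ZT16, the authors' values gave 3 higher and 1 lower at ZT8 and ZT16, quantile normalization gave 1 higher and 3 lower at ZT8, and median scaling gave 1 higher and 6 lower at ZT12 and ZT16. The median log2 ratio over the 10 members was -0.07, -0.21 and -0.16 at ZT8, ZT12 and ZT16, against 0.0046, -0.015 and -0.00053 over all genes. Apom and Apof were the 2 members called at every time, while Apoa1, Apoc1 and Apoe were called at no time under the 75th percentile scaling. The groups did not overlap for 2, 3 and 3 members, where 15.5%, 21.3% and 19.3% of all genes had no overlap.

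**Figure D1:**
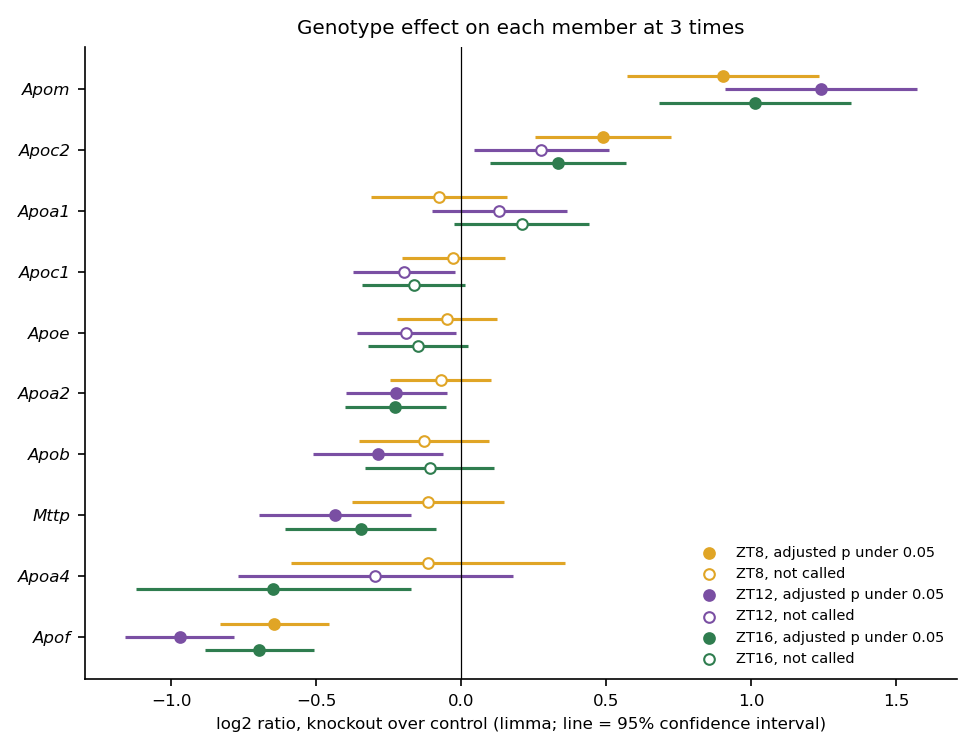
Log2 ratio of knockout to control (x axis) for the 10 members (y axis) at ZT8, ZT12 and ZT16, from limma with 36 arrays; lines are 95% confidence intervals, and filled points have an adjusted p under 0.05. Apom lies right of 0 and Apof left of 0 at all 3 times, with intervals that exclude 0, and most other members lie within 0.5 of 0.

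Apom, the HDL-bound carrier of sphingosine 1-phosphate, was the member with the largest difference. At ZT8 its level ran from 6.39 to 6.59 in controls (median 6.49) and from 6.93 to 7.54 in knockouts (median 7.44). At ZT12 controls ran from 5.61 to 6.66 (median 6.08) and knockouts from 7.11 to 7.55 (median 7.37). At ZT16 controls ran from 5.55 to 6.48 (median 6.06) and knockouts from 6.57 to 7.52 (median 7.07). Every knockout lay above every control of its time, by a narrow gap at ZT16. Apom rose 1.87-fold at ZT8 (log2 ratio 0.90, 95% confidence interval 0.57 to 1.23, limma adjusted p 5.64e-05). The rise was 2.36-fold at ZT12 (1.24, 0.91 to 1.57, limma adjusted p 3.4e-07) and 2.02-fold at ZT16 (1.01, 0.68 to 1.34, limma adjusted p 9.59e-06). Within single wash batches the difference ran from 0.74 to 1.54, higher in all 3 batches at each time. Control arrays were tightly grouped at ZT8 (SD 0.08, n = 6) and spread widely at ZT12 and ZT16 (SD 0.40 and 0.38).

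Apof, which circulates on lipoproteins and modulates the transfer of cholesteryl ester between them, moved the other way. At ZT8 its level ran from 6.51 to 6.87 in controls (median 6.75) and from 5.83 to 6.33 in knockouts (median 6.14). At ZT12 controls ran from 6.65 to 6.81 (median 6.77) and knockouts from 5.42 to 6.15 (median 5.74). At ZT16 controls ran from 6.40 to 6.69 (median 6.65) and knockouts from 5.70 to 6.21 (median 5.90). All 6 knockouts lay below all 6 controls at each time. Apof fell to 64.0%, 51.0% and 61.7% of control at ZT8, ZT12 and ZT16. The log2 ratios were -0.64, -0.97 and -0.70, each with an SE of 0.09 (limma adjusted p 2.04e-06, 1.09e-09 and 4.69e-07). Its difference within single wash batches ran from -1.06 to -0.40. Apom and Apof kept their direction and their call in every alternative tried and without any single array.

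**Figure D2:**
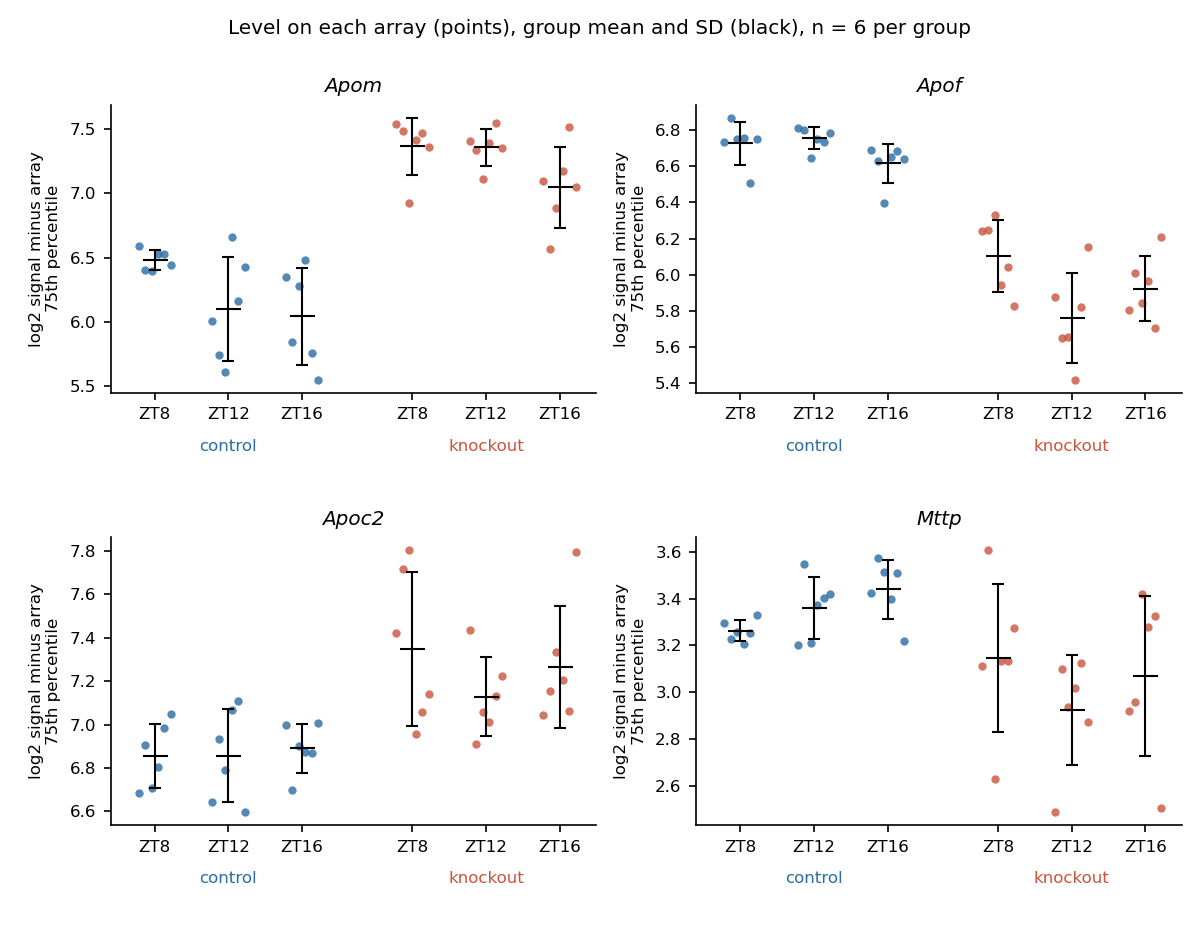
Level on every array (points; y axis, log2 signal minus the array's 75th percentile) of Apom, Apof, Apoc2 and Mttp in the 3 control and 3 knockout groups (x axis); black marks are group means with SD, n = 6. Knockouts lie above controls for Apom and below them for Apof at each time without overlap, while the groups overlap for Apoc2 at ZT8 and ZT12 and for Mttp at ZT8 and ZT16.

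Because both genes were read on the same arrays, the difference between their log2 signals within an array needs no scaling between arrays. Apom minus Apof ran from -1.09 to 0.02 over the 18 control arrays and from 0.56 to 1.98 over the 18 knockout arrays. The sets of arrays thus separated completely, whatever the time. The difference was higher in knockouts by 1.51, 2.25 and 1.70 at the 3 times (exact permutation test, two-sided, 6 against 6 arrays, p = 0.00216 at each time, the smallest this design allows; 0.0037 after adjustment over 12 tests of 4 gene pairs). The 4 pairs were picked after the values had been seen. Apom and Apof already separated the genotypes in opposite directions at each time, so the smallest p was certain for this pair. It adds no support to the single-gene results.

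Apoc2, Apoc1 and Apoe sit in one cluster on chromosome 7, with 16.2 kb between the Apoc2 and Apoc1 probes and 6.7 kb between the Apoc1 and Apoe probes. Apoc2, the cofactor that lipoprotein lipase needs, was higher in knockouts. At ZT8 it ran from 6.68 to 7.05 in controls (median 6.86) and 6.96 to 7.80 in knockouts (median 7.28). At ZT12 the ranges were 6.60 to 7.11 (median 6.86) and 6.91 to 7.44 (median 7.09). At ZT16 they were 6.70 to 7.01 (median 6.89) and 7.04 to 7.79 (median 7.18). The groups overlapped at ZT8 and ZT12 and stood just apart at ZT16. Apoc2 rose 1.40-fold at ZT8 (log2 ratio 0.49, SE 0.11, limma adjusted p 0.0012) and 1.26-fold at ZT16 (0.33, adjusted p 0.0211), and its ZT12 ratio of 0.28 was not called (adjusted p 0.0524). The second probe gave 0.47, 0.31 and 0.31 at the 3 times and was called at ZT8 only (limma adjusted p 0.00599, 0.0564 and 0.064). Under quantile normalization neither call remained (0.34 and 0.20, adjusted p 0.0916 and 0.308), and without knockout ZT16 replicate 6 the ZT16 ratio was 0.26 (adjusted p 0.0662). The ZT12 ratio was called without any one of knockout ZT12 replicates 2 and 3, control ZT12 replicates 2 and 5, knockout ZT8 replicates 3 and 4 and knockout ZT16 replicate 6 (adjusted p 0.0147 to 0.0473). It was also called with normexp background correction, with only probes above background on all arrays, with array weights, with the mean of both probes (adjusted p 0.0323 to 0.0496) and without scaling between arrays (0.51, adjusted p 0.00974). The ZT16 call was lost with slide as a fixed block (0.29, adjusted p 0.0593) and under median scaling (0.28, adjusted p 0.0543).

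Apoc1 and Apoe, the cluster neighbours, were not called at any time under the 75th percentile scaling with all arrays in the fit. Apoc1 levels over the 6 groups ran from 9.96 to 10.75 and Apoe levels from 9.48 to 10.24, with overlap between genotypes at each time. The log2 ratio of Apoc1 was -0.03, -0.20 and -0.16 and that of Apoe -0.05, -0.19 and -0.15 at ZT8, ZT12 and ZT16, with limma adjusted p of 0.067 to 0.837. Without knockout ZT8 replicate 3, which entered these tests only through the shared spread and batch terms, Apoc1 was called lower at ZT12 and ZT16 (-0.20 and -0.18, limma adjusted p 0.0134 and 0.0308) and Apoe at ZT12 (-0.19, adjusted p 0.0186). Median scaling called both lower at ZT12 (-0.24 and -0.23, adjusted p 0.0234 and 0.0231) and ZT16 (-0.21 and -0.20, adjusted p 0.0402 and 0.0489). Both were also called lower at ZT12 with only the groups compared (adjusted p 0.0232 and 0.0341) and at ZT16 with array weights (0.022 and 0.0316), and Apoc1 at ZT12 with array weights (0.0455). The 95% confidence intervals at ZT12 were -0.38 to -0.02 for Apoc1 and -0.36 to -0.02 for Apoe. The second Apoe probe gave -0.15, -0.10 and -0.09 at the 3 times (limma adjusted p 0.261, 0.462 and 0.506). Its ZT12 interval, -0.30 to 0.10, included 0. Apoe is also a product of macrophages, and the Kupffer cell markers given above were higher in the same knockouts. What part this has in the Apoe values was not tested.

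Set against each neighbour on the same array, Apoc2 was higher in knockouts at all 3 times. These pairs were picked after the values had been seen, so their p-values are no separate support for the single-gene results. Apoc2 minus Apoe ran from -3.36 to -2.69 over the control arrays and from -2.90 to -1.68 over the knockouts. It rose by 0.55 at ZT8 (exact permutation p = 0.00866, adjusted 0.013), 0.45 at ZT12 (p = 0.00216, adjusted 0.0037) and 0.50 at ZT16 (p = 0.00216, adjusted 0.0037), and groups did not overlap at ZT12 and ZT16. Apoc2 minus Apoc1 rose by 0.54, 0.45 and 0.51 (exact permutation p = 0.0152, 0.00216 and 0.00216). With the second probes of both genes, Apoc2 minus Apoe rose by 0.64, 0.39 and 0.43 (exact permutation p = 0.00433, 0.0152 and 0.00433). The main Apoe and Apoc1 probes were read at 45.9% to 69.5% of the saturation value, against 13.2% to 25.4% for the second Apoe probe and 1.46% to 14.7% for the Apoc2 probes. Under quantile normalization the log2 ratios at the 3 times were 0.34, 0.15 and 0.20 for Apoc2. They were 0.02, -0.02 and -0.02 for Apoe and 0.03, 0.05 and 0.06 for Apoc1, so Apoc2 stood less far above both. The pair tests were not run on those values. Without scaling between arrays the log2 ratios were 0.55, 0.51 and 0.53 for Apoc2. They were 0.01, 0.05 and 0.05 for Apoe and 0.03, 0.04 and 0.03 for Apoc1. What part the brightness of the neighbours has in the pair differences was not tested.

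**Figure D3:**
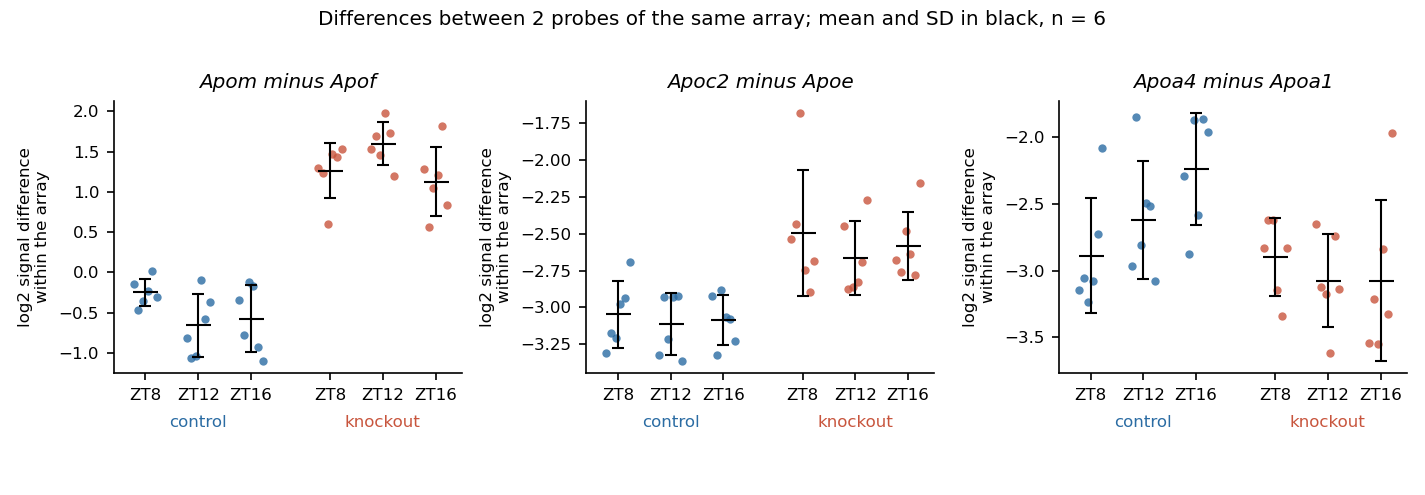
Difference in log2 signal between 2 genes on the same array (y axis) for Apom minus Apof, Apoc2 minus Apoe and Apoa4 minus Apoa1, in the 3 control and 3 knockout groups (x axis); black marks are means with SD, n = 6. Apom minus Apof separates all knockouts from all controls, Apoc2 minus Apoe is higher in knockouts, and Apoa4 minus Apoa1 is lower in most ZT16 knockouts than in ZT16 controls.

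Of the pair that builds the VLDL particle, Mttp was lower in knockouts at both later times. At ZT8 its level ran from 3.21 to 3.33 in controls (median 3.25) and 2.63 to 3.61 in knockouts (median 3.13). At ZT12 it ran from 3.20 to 3.55 in controls (median 3.39) and 2.49 to 3.13 in knockouts (median 2.98), and at ZT16 from 3.22 to 3.58 (median 3.47) and 2.51 to 3.42 (median 3.12). The ZT12 groups did not overlap, and the knockouts were more spread than the controls at each time (SD 0.23 to 0.34 against 0.05 to 0.13). Mttp fell to 73.9% of control at ZT12 (log2 ratio -0.44, SE 0.13, limma adjusted p 0.00687) and to 78.6% at ZT16 (-0.35, adjusted p 0.0305), and was not called at ZT8 (-0.11, adjusted p 0.523). The ZT12 call held without any single array, and was lost without scaling between arrays (-0.20, adjusted p 0.292) and when the dim probe was averaged in (-0.21, adjusted p 0.479). The ZT16 call was lost without any one of knockout ZT16 replicates 1, 2 and 6 and control ZT16 replicates 2, 3 and 5 (adjusted p 0.0505 to 0.0983). It was also lost under 6 settings: quantile normalization (-0.24, adjusted p 0.114), the authors' values (-0.20, 0.161), no filter on dim probes (-0.35, 0.0538), only the groups compared (-0.34, 0.103), the mean of both probes (-0.31, 0.28) and no scaling (-0.15, 0.45).

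Apob, the structural protein of VLDL, was read by 2 probes on chromosome 12 (mm9 chr12:8012697-8012756, and a dimmer probe whose 60 bases span chr12:7992933-7994547). At ZT12 the first ran from 7.01 to 7.30 in controls (median 7.24) and 6.52 to 7.19 in knockouts (median 7.02). The groups overlapped. Apob fell to 82.0% of control at ZT12 (log2 ratio -0.29, limma adjusted p 0.0353), and the second probe gave -0.35 there (adjusted p 0.0135). At ZT8 and ZT16 the ratios were -0.13 and -0.11 (adjusted p 0.387 and 0.452), and the second probe gave -0.15 and -0.11. Quantile normalization called Apob lower at both of these times (-0.29 and -0.22, adjusted p 0.00344 and 0.0205). The ZT12 call was lost without any one of control ZT12 replicates 3, 4, 5 and 6 and knockout ZT12 replicates 1 and 6 (adjusted p 0.0515 to 0.119), and with no filter on dim probes, no wash batch term, array weights (adjusted p 0.0633 to 0.0826) or no scaling between arrays (-0.05, adjusted p 0.706).

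Among the HDL apolipoproteins, Apoa1 was not called at any time under the 75th percentile scaling, with log2 ratios of -0.08, 0.13 and 0.21 at ZT8, ZT12 and ZT16 (limma adjusted p 0.648, 0.378 and 0.151). Other settings did call it. It was higher at ZT16 in the authors' values (0.23, adjusted p 0.0161) and, without scaling between arrays, at ZT12 and ZT16 (0.37 and 0.41, adjusted p 0.0143 and 0.00804), and lower at ZT8 under quantile normalization (-0.22, adjusted p 0.0135). Its levels ran from 6.94 to 7.58 over the 18 control arrays and from 6.72 to 7.68 over the knockouts. Apoa2 had small called falls. At ZT12 it ran from 9.93 to 10.08 in controls (median 9.99) and 9.53 to 9.93 in knockouts (median 9.79), overlapping only at the boundary. At ZT16 controls ran from 9.87 to 10.34 (median 9.98) and knockouts from 9.72 to 9.93 (median 9.84). Apoa2 fell to 85.6% of control at ZT12 and 85.4% at ZT16 (log2 ratios -0.22 and -0.23, limma adjusted p 0.034 and 0.0328), and was not called at ZT8 (-0.07, adjusted p 0.557). Its second probe gave -0.13, -0.26 and -0.23 (limma adjusted p 0.186, 0.0079 and 0.0175). These calls depended on the scaling, as described below. The ZT12 call was also lost without any one of control ZT12 replicates 3, 5 and 6 and knockout ZT12 replicate 6, and the ZT16 call without any one of control ZT16 replicates 2 and 6 and knockout ZT16 replicates 1 and 3 (adjusted p 0.0527 to 0.114).

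Apoa4, which travels on chylomicrons and HDL and is made in intestine as well as liver, lies 13.2 kb from Apoa1 by their probes. At ZT8 its level ran from 4.12 to 5.18 in controls (median 4.31) and 4.07 to 4.87 in knockouts (median 4.21). At ZT12 the ranges were 4.20 to 5.38 (median 4.73) and 3.82 to 4.91 (median 4.43). At ZT16 they were 4.60 to 5.42 (median 5.05) and 4.03 to 5.32 (median 4.27). Of the 6 ZT16 knockouts, 5 lay below every ZT16 control, and knockout ZT16 replicate 6 lay at 5.32. Apoa4 fell to 63.8% of control at ZT16 (log2 ratio -0.65, SE 0.23, limma adjusted p 0.0259), and its ratios of -0.12 at ZT8 and -0.30 at ZT12 were not called. The ZT16 call was lost without any one of knockout ZT16 replicates 1 and 3 and control ZT16 replicates 3 and 5 (adjusted p 0.0579 to 0.0681), in the authors' values (-0.53, adjusted p 0.0571) and without scaling between arrays (-0.45, adjusted p 0.134). Apoa4 minus Apoa1 within an array differed between genotypes by -0.01, -0.46 and -0.84 at the 3 times (exact permutation p = 0.974, 0.0693 and 0.0238, adjusted 0.974, 0.0756 and 0.0286). Of the 4 intestine markers, 3 were measured and Cdx2 was well above background on 3 arrays. The summed level of the 3 ran from 16.7 to 49.6 times the 75th percentile signal in controls and from 4.00 to 21.8 in knockouts. Fabp2, which carries most of that sum in controls, had log2 ratios of -3.16, -3.65 and -3.33, Vil1 had 1.42, 1.18 and 1.36 with a signal well above background on 18 arrays, and Lgals4 had 1.27, -0.06 and -0.12. Their part in the Apoa4 result was not tested.

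The direction for the brightest members depended on how the arrays were scaled. The array's 75th percentile was subtracted here, and it was higher in ZT12 and ZT16 knockouts, so leaving it out moved the median log2 ratio of all genes from 0.0046 to 0.07 at ZT8, from -0.015 to 0.22 at ZT12 and from -0.00053 to 0.20 at ZT16. Apoa2, Apoc1 and Apoe, whose main probes reached 61.8%, 69.5% and 61.2% of the saturation value, had ratios closer to 0, or above it, in quantile normalized data. At ZT12 Apoa2 went from -0.22 to -0.04 under quantile normalization (limma adjusted p 0.42) and 0.01 in the authors' deposited values (adjusted p 0.862). At ZT16 it went from -0.23 to -0.10 under quantile normalization, where it was still called lower, and to -0.01 in the authors' values (adjusted p 0.82). Apoc1 went from -0.20 to 0.05 and 0.06, and Apoe from -0.19 to -0.02 and 0.04. Apoe was called higher at ZT8 in the authors' values (0.11, adjusted p 0.0263). Apom, Apof, Apoc2, Apoa4 and Mttp, which are dimmer, kept their direction under all 5 scalings at all 3 times. Apoa1 and Apob, also dimmer, did not: Apoa1 at ZT12 was -0.0012 under quantile normalization, and Apob at ZT16 was 0.089 without scaling. Mttp at ZT8 turned only when both probes were averaged (0.32, adjusted p 0.277).

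**Figure D4:**
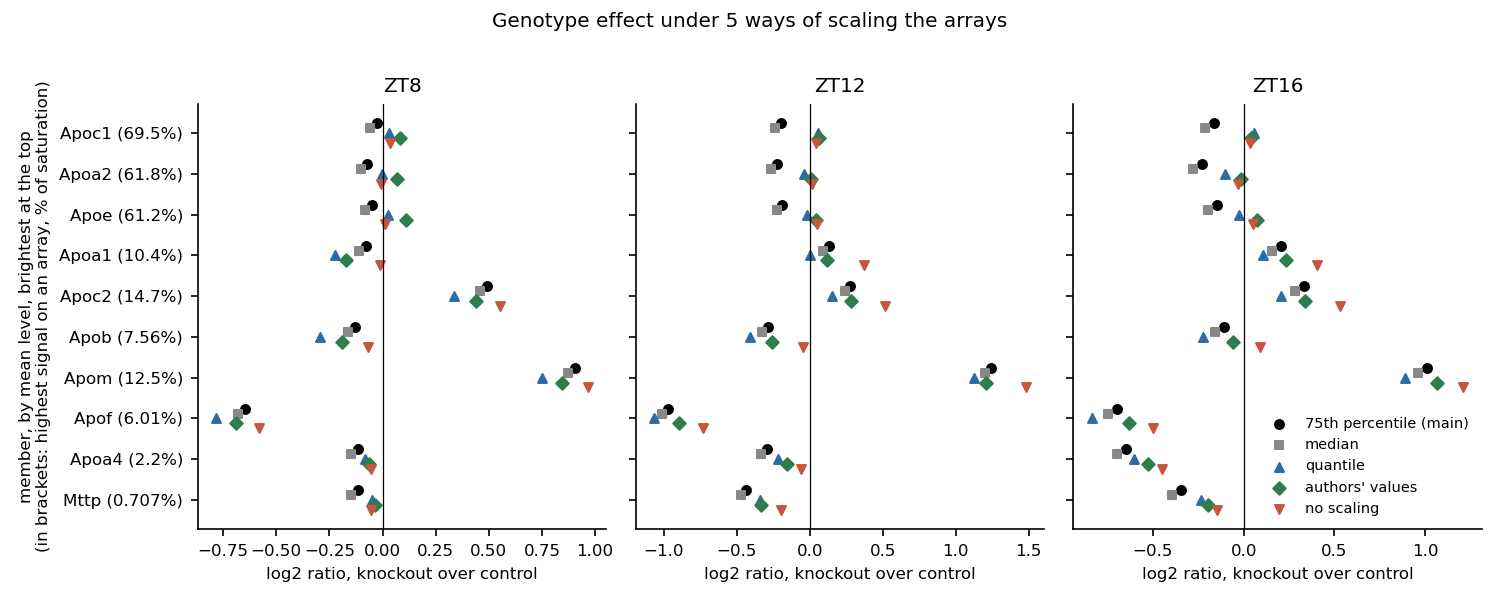
Log2 ratio of knockout to control (x axis) at ZT8, ZT12 and ZT16 for the 10 members (y axis, brightest at the top, with the highest signal on an array in percent of the saturation value), under scaling to the 75th percentile or the median, quantile normalization, the authors' deposited values and no scaling. Apoc1, Apoa2 and Apoe straddle 0 between settings, while Apom and Apof stay on their side of 0 in all 5.

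Few members were called between times of day. In controls, Apom fell by 0.44 and Apoa4 rose by 0.64 from ZT8 to ZT16 on the log2 scale (limma adjusted p 0.0407 and 0.0399), which made 2 of 10 members called against 26.6% of all genes. Both calls were lost under several settings and single omitted arrays. The Apom call was lost without any one of control ZT8 replicates 1, 2, 4, 5 and 6 and control ZT16 replicates 2, 5 and 6, and the Apoa4 call without any one of control ZT8 replicates 1 to 5 and control ZT16 replicates 1, 3 and 5 (adjusted p 0.0522 to 0.149). In knockouts, Apof fell by 0.30 from ZT8 to ZT12 (limma adjusted p 0.0317), the 1 member called where 13.1% of all genes were, and this was lost without any one of knockout ZT8 replicates 1, 2, 3 and 5 and knockout ZT12 replicates 2, 3 and 4 (adjusted p 0.0517 to 0.0883).

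For the other time comparisons limma called no member: control ZT12 against ZT8 (14.8% of all genes), control ZT16 against ZT12 (3.62%), knockout ZT16 against ZT12 (12.6%) and knockout ZT16 against ZT8 (28.9%). Apom group means, from the highest, were 7.37, 7.36 and 7.05 in ZT8, ZT12 and ZT16 knockouts and 6.48, 6.10 and 6.04 in ZT8, ZT12 and ZT16 controls. Among neighbours in that order, ZT16 knockouts and ZT8 controls overlapped only at the boundary, with 6.57 the lowest knockout and 6.59 the highest control. Apof group means were 6.76, 6.73 and 6.62 in ZT12, ZT8 and ZT16 controls and 6.10, 5.92 and 5.76 in ZT8, ZT16 and ZT12 knockouts. For Apof the gap between genotypes, between 6.40 for the lowest ZT16 control and 6.33 for the highest ZT8 knockout, held across all times.

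Whether the genotype effect on a member differed between times was tested directly. The limma F test called 0 of 10 members (8.46% of all genes), and the pairwise tests called 0 members for ZT12 against ZT8 (1.24%), 0 for ZT16 against ZT12 (1.89%) and 0 for ZT16 against ZT8 (9.76%). At an unadjusted p under 0.05 there was 1 member in the F test and 1, 1 and 0 in the pairwise tests, in each case Apof. So the later calls of Mttp, Apob, Apoa2 and Apoa4 are not shown to differ from their uncalled ZT8 ratios. The ZT16 against ZT8 difference for Apoa1, 0.28 in the main fit, was called under quantile normalization (0.33, limma adjusted p 0.0296) and in the authors' values (0.40, adjusted p 0.014).

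Related genes outside the 10 were read from lists by role. The lists were chosen with earlier results of these data known, so their counts beside the shares of all genes are a description only. Of 13 genes of VLDL assembly and secretion, 8, 10 and 8 were called lower at ZT8, ZT12 and ZT16 and 2, 0 and 1 higher (18.9%, 22.4% and 20.2% of all genes were called lower, and 16.6%, 19.7% and 19.6% higher), with median log2 ratios of -0.34, -0.49 and -0.39. Aadac, an endoplasmic reticulum lipase, fell by 1.59, 1.48 and 1.42 on the log2 scale, and Ces1d, a carboxylesterase that releases stored triglyceride, by 0.87, 1.35 and 2.12. Sar1b, the GTPase of the coat that carries large particles out of the endoplasmic reticulum, fell by 0.67, 0.98 and 1.34. The highest limma adjusted p of these 3 genes over the 3 times was 0.000124.

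Of 7 other apolipoprotein genes, 3, 3 and 4 were called lower and 0 higher, with medians of -0.12, -0.17 and -0.24. Of all genes, 18.9%, 22.4% and 20.2% were called lower and 16.6%, 19.7% and 19.6% higher. Apon fell by 0.91, 1.03 and 0.61 and Apoc3, an inhibitor of triglyceride clearance, by 0.35, 0.46 and 0.45 on the log2 scale (limma adjusted p at most 0.0095). Apoc4 fell by 0.27 and 0.30 at ZT12 and ZT16 (adjusted p 0.00208 and 0.000727) and was not called at ZT8 (-0.12, adjusted p 0.199). Of 6 genes of HDL formation and remodelling, 2 were higher and 2 lower at each time. Scarb1, the HDL receptor, rose by 0.79, 0.87 and 0.95, Abcg1, a cholesterol exporter to HDL, rose by 1.25, 1.67 and 1.53, and Pltp, the phospholipid transfer protein, fell by 1.55, 1.30 and 1.29 on the log2 scale (limma adjusted p at most 0.000165).

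Of 9 uptake receptors and their regulators, 5, 4 and 4 were called lower and 0, 1 and 2 higher. For this list and the next, the shares of all genes were 18.9%, 22.4% and 20.2% lower and 16.6%, 19.7% and 19.6% higher. Lrpap1, a chaperone of LDL receptor family proteins, fell by 0.53, 0.58 and 0.51 on the log2 scale. Of 13 transcription factors known to act on apolipoprotein genes, 6, 7 and 7 were called lower and 0, 1 and 0 higher. Srebf1, the activator of lipogenic genes, fell by 1.80, 1.47 and 1.12, Nr1h4, the bile acid receptor, by 0.53, 1.21 and 1.42, and Creb3l3, an endoplasmic reticulum bound factor of liver, by 0.43, 0.97 and 0.89. Each value of these 4 genes had a limma adjusted p of at most 0.0116.

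For the 3 members whose group means ranged most, the genes most like them were sought among 17889 genes well above background on all arrays, by Pearson correlation over the 36 arrays after removal of wash batch means. For Apom they were Hsd17b6, a steroid dehydrogenase (r = 0.914), and Psmd9, a proteasome assembly chaperone (0.911). For Apof they were Carhsp1 (0.963) and Aldh1a7, an aldehyde dehydrogenase (0.951). These correlations contain the genotype difference, and within the 18 knockouts or the 18 controls alone they were lower, 0.341 and 0.728 for Hsd17b6 and 0.828 and 0.581 for Carhsp1. Psmd9 rose by 0.92, 0.94 and 0.88 on the log2 scale in knockouts at the 3 times. Carhsp1 fell by 0.83, 1.13 and 0.92 (limma adjusted p of both at most 1.2e-06). Both were picked by a correlation that contains the genotype difference, so these calls add no support to the Apom and Apof results.

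The probe most like Apoa4 was A_30_P01020769, designed to a long noncoding RNA on the forward strand of chromosome 19 and placed in the files at mm9 chr19:5845052-5845111. Its correlation with Apoa4 was 0.968 over the 36 arrays (Spearman 0.959), 0.961 without the 2 arrays farthest from the median of Apoa4, and 0.98 and 0.978 within knockouts and within controls. The next gene, Dntt, reached 0.813. The longest run of bases that the noncoding RNA probe and the Apoa4 probe share is 6 on the same strand and 5 on the opposite strand. This compares only the 2 probe sequences. Whether other parts of the Apoa4 RNA bind the noncoding RNA probe was not tested. Like Apoa4, the noncoding RNA probe rose from ZT8 to ZT16 in controls (log2 change 0.48, limma adjusted p 0.0423). It was also lower in ZT16 knockouts (log2 ratio -0.61, limma adjusted p 0.00659). The probe was picked by its likeness to Apoa4 on these arrays, so these calls add no support to the Apoa4 result.

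**Figure D5:**
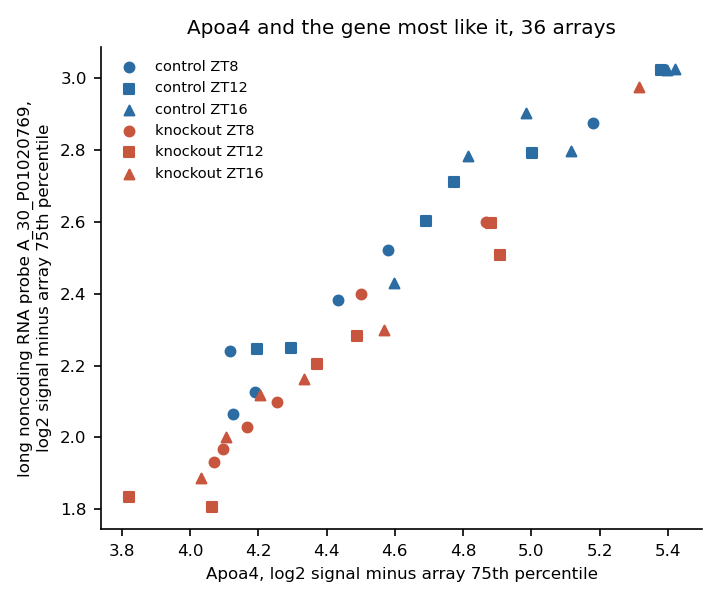
Level of the noncoding RNA probe A_30_P01020769 (y axis) against that of Apoa4 (x axis), both as log2 signal minus the array's 75th percentile, on the 36 arrays by genotype and time. The points follow 1 line in both genotypes (Pearson r 0.968), and ZT16 controls lie at its upper end.

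The 250 bases before the start sites were searched on both strands for 6 motifs tied to insulin, nuclear receptor, cyclic AMP or clock signalling or to the core promoter. RefSeq (GRCm38.p6) held 11 such windows for 8 of the 10 members and 32851 in all. GTAAACA (FoxO) was in 3.17% of all windows and, of the members, in 1 of 2 windows of Apoa2. AGGTCA (the single element of nuclear receptors) was in 14.0% of all windows and in those of Apoa2 and Apoc2, and its direct repeat spaced by 1 base (DR1) was in 0.03% and in no member. TGACG (core of the cyclic AMP response element) was in 17.8% of all windows and in those of Apoa2, Apoc2 and Mttp. CACGTG (E-box) was in 6.02% and in no member, and TATAAA, the core promoter box, was in 12.4% and in windows of Apoa2, Apob and Apoe. The 6 motifs overlap only in that AGGTCA is contained in its repeat.

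Printed are the windows of Apom, the member that rose most and held no match, and of Apoc2 and Apoe, the cluster neighbours whose genotype effects differed. Capitals mark the matches, which are letters found and not sites shown to be used. Only these exact letters were searched, so a window without a match can still hold a variant of a motif. In Apoc2 (chr7:19677942-19678191, minus strand) AGGTCA begins 115 bases and CGTCA, the reverse complement of TGACG, 103 bases before the start. In the Apoe window shown (chr7:19698622-19698871, minus strand) TATAAA is matched at -100 on the minus and -96 on the plus strand of the window, overlapping. The Apom window is chr17:35131802-35132051 (minus strand).
Apom, upstream window: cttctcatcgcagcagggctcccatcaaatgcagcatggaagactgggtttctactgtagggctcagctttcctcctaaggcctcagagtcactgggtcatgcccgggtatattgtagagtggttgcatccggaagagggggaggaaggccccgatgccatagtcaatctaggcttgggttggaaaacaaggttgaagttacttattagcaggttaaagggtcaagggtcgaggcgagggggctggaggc
Apoc2, upstream window: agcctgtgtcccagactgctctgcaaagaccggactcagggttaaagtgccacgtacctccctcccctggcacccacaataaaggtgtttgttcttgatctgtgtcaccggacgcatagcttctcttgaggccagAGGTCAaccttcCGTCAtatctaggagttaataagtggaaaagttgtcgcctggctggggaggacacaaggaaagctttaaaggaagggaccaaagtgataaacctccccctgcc
Apoe, upstream window: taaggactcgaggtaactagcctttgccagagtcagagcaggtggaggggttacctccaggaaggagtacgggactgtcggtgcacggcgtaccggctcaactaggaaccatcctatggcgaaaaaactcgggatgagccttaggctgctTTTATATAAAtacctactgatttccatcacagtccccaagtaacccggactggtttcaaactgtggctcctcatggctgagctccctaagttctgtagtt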

How the data were processed

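The 36 scanner tables hold spot intensity values that the authors deposited as written by Agilent Feature Extraction 10.10.1.1, per the file headers (Cy3, background-subtracted and detrended). Other columns the authors deposited, per the file headers, flag spots as well above background, saturated or non-uniform. The authors also deposited a table of log2 values with identical sorted values in all 36 columns (limma, per the submitters' processing notes), with centring and background step not given in the sources used here.

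Here log2 of the processed signal minus the array's 75th percentile was used. Spots of a probe were averaged, probes well above background on at least 6 arrays were kept, and the brightest probe stood for a gene. limma 3.58.1 (R 4.3.3) fitted 6 group means and wash batch, with Benjamini-Hochberg adjustment over 23054 genes. On simulated data for ZT12 it recovered 16%, 56%, 78% and 100% of genes changed by 0.3, 0.6, 1 and 2 log2 units, of 50 each, with 8 false calls. Far fewer genes were changed there than the 42.1% called at ZT12 in the data. The adjustment is stricter in that setting, so these shares do not give the recovery in the tests above. The number of arrays limits the precision. The labels call the arrays separate replicates without stating separate litters, so p-values measure the spread between these samples.

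Members and gene lists were chosen with earlier results of these data known. Named are the members and Insr, up to 3 genes a list with the smallest p among those above background on every array, and the 2 genes most correlated with each of the 3 members of widest range. Some genes that this rule names are not reported here. Gene names are those of the files.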

Additional observations from a re-analysis of the deposited data

Results flagged for a closer look

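In 66 sets of 6 arrays (11 genes in 6 groups), 7 had 1 value apart from the others by Dixon's criterion, which chance gives in about 1 group in 20. Knockout ZT12 replicate 6 was low for 3 members: Apoa1 at 6.96 (the other 5 arrays 7.55 to 7.68), Apoc1 at 9.96 (10.27 to 10.40) and Apoe at 9.49 (9.79 to 9.92). That array had the highest 75th percentile signal of all, 520.5 intensity units, which is subtracted here. Its Apoa1 signal before scaling, 64790 units, was also the lowest of its group (the others 73431 to 90811). What part the scaling has in the 3 low values was not tested. Apof was low on control ZT8 replicate 5 at 6.51 (6.73 to 6.87) and on control ZT16 replicate 3 at 6.40 (6.63 to 6.69). Apom was low on knockout ZT8 replicate 3 at 6.93 (7.36 to 7.54). Insr was low on knockout ZT16 replicate 5 at -3.74 (-3.22 to -3.06).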

How the results depend on the processing

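Over 14 settings, 2 of them added after the data were seen, and 36 omissions of 1 array, Apom and Apof kept their genotype calls. The counts below are given without the share of all genes called in the same fit. They show only how the member calls moved, and are no result about the members as a set. At ZT12 members called went from 5 to 3 with no filter on dim probes and to 3 without the wash batch term, and rose to 7 with only the groups compared and with median scaling. At ZT16 they went from 6 to 8 with array weights, 7 with median scaling and 4 in the authors' values, with no filter, with only the groups compared and with no scaling. At ZT8 they went from 3 to 4 under quantile normalization and in the authors' values. Control ZT12 against ZT8 went from 0 to 1 under quantile normalization and in the authors' values. Control ZT16 against ZT8 went from 2 to 0 with no filter and with no scaling, and to 1 with slide as a fixed block, with the replicate block and with only the groups compared. Knockout ZT12 against ZT8 went from 1 to 0 under quantile normalization, the authors' values, no filter, only the groups compared and no scaling. Knockout ZT16 against ZT8 went from 0 to 1 under quantile normalization, the authors' values, slide as a fixed block and no scaling. The genotype effect at ZT16 against ZT8 went from 0 to 1 under quantile normalization and the authors' values, and the F test from 0 to 1 in the authors' values. With 1 array left out, members called ran from 3 to 3 at ZT8, 3 to 8 at ZT12 (8 without knockout ZT8 replicate 3) and 3 to 7 at ZT16 (7 without that array, 3 without knockout ZT16 replicate 1), 0 to 1 for control ZT12 against ZT8, 0 to 2 for control ZT16 against ZT8, 0 to 2 for knockout ZT12 against ZT8, 0 to 1 for knockout ZT16 against ZT8, and 0 to 0 for the rest.

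Signs turned as follows, and the cause was not tested. Under quantile normalization Apoa1 at ZT12 was -0.0012, Apoc1 0.031, 0.053 and 0.058 at ZT8, ZT12 and ZT16, and Apoe at ZT8 0.024. In the authors' values Apoa2 was 0.067 and 0.010 at ZT8 and ZT12, Apoc1 0.085, 0.064 and 0.041, and Apoe 0.11, 0.044 and 0.074. With no scaling Apoa2 at ZT12 was 0.012, Apob at ZT16 0.089, Apoc1 0.034, 0.039 and 0.033, and Apoe 0.013, 0.047 and 0.049. With array weights Apoa1, Apoc1 and Apoe at ZT8 were 0.00051, 0.029 and 0.0027, and the mean of both Mttp probes gave 0.32 at ZT8. With 1 array left out the ZT8 ratios ran from -0.14 to 0.032 for Apoa1, -0.13 to 0.020 for Apoa2, -0.087 to 0.078 for Apoc1 and -0.10 to 0.047 for Apoe, each highest without knockout ZT8 replicate 3, and from -0.22 to 0.066 for Apoa4, highest without control ZT8 replicate 6.

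Of single-gene results under other settings, 391 kept direction and call. Among those that kept direction, 38 lost the call and 22 gained one. Another 25 turned sign, whether or not their call changed. Arrays of the same replicate number did not deviate together (correlations -0.5 to 0.23 over 90 pairs, median 0.02), so the numbers were not taken as pairing the mice, and with the replicate block Apoa4 in controls at ZT16 against ZT8 was 0.64 (limma adjusted p 0.0537).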
